A study of Rattus norvegicus with 8 samples.

Results

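Homeostatic-type microglia were cells of rat spinal cord selected on their own counts, as those that carried many transcripts of the complement C1q subunits together with transcripts of microglial identity genes. Counts were of unique molecular identifiers (UMIs), each of which marks 1 RNA molecule in 1 cell. A cell was kept when it had at least 1000 UMIs, with at most 10% of them on mitochondrial (Mt-) genes. It further needed at least 10 UMIs of C1qa, C1qb and C1qc together and at least 3 UMIs of P2ry12, Tmem119 and Sall1 together. Cells with more than 1 UMI of Mki67 and Top2a together, with more than 1 UMI of Fabp4, or with 5 or more UMIs of Cxcl1 were left out. Of the 68658 cells deposited, 57296 passed the limits on total UMIs and Mt- genes, and 1919 of these met the whole rule, 3.35% of the cells that passed. There were 1217 such cells from sham-operated rats and 702 from injured rats.

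The cells came from female Wistar rats, 8 weeks of age, whose spinal cord was exposed at thoracic level 9. A weight of 10 g was dropped on the cord from 12.5 mm (mild), 25 mm (moderate) or 50 mm (severe), and the sham group had laminectomy alone. A cord segment of 10 mm around the lesion was dissociated 7 days after surgery and sequenced on the 10x Genomics platform. Each group had 2 libraries, and pairs of values below are given as replicate 1 and then replicate 2. The text of the study speaks of as many cords as libraries, and p-values measure the spread between these libraries. Where a call is given as lost without a library, the libraries named were left out 1 at a time. No preparation or sequencing batch is named. The injured groups were each compared with the same 2 sham libraries.

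Microglia are the resident macrophages of the central nervous system. They arise from the yolk sac, renew themselves within the tissue and depend on the receptor Csf1r. P2ry12 is the purinergic receptor through which their processes sense nucleotides from damaged cells, Tmem119 is a surface protein, and Sall1 is a transcription factor that keeps up their identity. C1q starts the classical complement cascade. After cord injury, blood-derived monocytes enter the lesion and become macrophages that share many genes with microglia, and microglia near a lesion are known to lower their identity genes.

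The label was checked against genes that the rule did not use. Csf1r was at 717 and 924 CPM (counts scaled to the same total over all genes in each library) in sham, 774 and 1004 in mild, 1085 and 828 in moderate, and 1066 and 614 in severe in these microglia. In low-identity phagocytes, which met the same limits but had 0 to 2 UMIs of the 3 identity genes, it was at 502 and 649 CPM in sham, 978 and 805 in mild, 905 and 875 in moderate, and 601 and 367 in severe. The fractalkine receptor Cx3cr1 was higher in the microglia than in the low-identity phagocytes of the same library in 7 of 8 libraries, the orphan receptor Gpr34 in 7 and the cathepsin inhibitor Cst3 in 7. Mrc1, a mannose receptor of border macrophages, was higher in the microglia in 0 of 8, and Apoe, a lipid carrier, in 1. The 4618 low-identity phagocytes differ from the microglia by the rule itself, so these counts describe the cells and carry no test. All 4 given markers (P2ry12, Tmem119, Sall1, C1qa) were present in every library.

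Several libraries stood apart from the rest. In sham replicate 1, all 123 microglia held UMIs of the neutrophil proteins S100a8 or S100a9, with a median of 30 such UMIs per cell, whereas 4.30% did in sham replicate 2 and 10.3 to 51.3% in the injured libraries. The 12 neutrophil markers summed to 5105 and 218 CPM in sham, 338 and 87.0 in mild, 152 and 45.4 in moderate, and 906 and 60.02 in severe in the microglia, and S100a9 was the most abundant of them. In all other cells of the same libraries they summed to 62429 and 234 CPM in sham, 1877 and 756 in mild, 684 and 1017 in moderate, and 3099 and 1045 in severe. After thinning cells of at least 3000 UMIs to that depth, S100a9 was found in 93.9% of the microglia of sham replicate 1. It was found in 91.3% of the oligodendrocytes there, cells that should lack it. Shallower cells were left out, 1 of the microglia and 323 of the oligodendrocytes. Median depths before thinning were 18117 and 14328.5 UMIs. The share in microglia was thus near that of a cell type without the gene, and without thinning both were at 99.9% or more. Of the defining neutrophil genes, Ltf was at 0 in the microglia of every library.

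Oligodendrocyte transcripts set the mild libraries apart. The 10 oligodendrocyte markers summed to 2324 and 657 CPM in sham, 9971 and 7219 in mild, 2935 and 4317 in moderate, and 276 and 610.2 in severe in the microglia. The mild libraries were thus the highest of the 8. Of the cells that met the rule, 30 had a glial profile. This was defined as more UMIs of a set of oligodendrocyte lineage genes than of the microglial genes Csf1r, Tyrobp, Ctss, Cx3cr1, Aif1, Fcer1g and Laptm5. Among the lineage genes were Olig1, Olig2, Sox10, Ptprz1, Cspg4, Pdgfra and Gpr17. These cells numbered 3 and 6 in sham, 7 and 8 in mild, 5 and 1 in moderate, and 0 and 0 in severe. They held 31.0% and 18.9% of the summed UMIs in mild, against at most 12.1% elsewhere. Their median C1q counts were 377 and 141 UMIs in sham, 19 and 28 in mild, and 85 and 10 in moderate. For all cells of the rule these were 312 and 166 UMIs, 288.5 and 223, and 127 and 239. In mild their median depths were 69499 and 43730.5 UMIs, against 14252.5 and 9142 for all cells of the rule. Whether the 30 cells are microglia was not tested. Results of the mild group are therefore also given without these cells. Of the remaining marker lists, border macrophage markers summed to 263 and 135 CPM in sham, 333 and 485 in mild, 310.2 and 805 in moderate, and 276 and 231 in severe. Infiltrating monocyte markers, led by Lyz2, summed to 2432 and 1560.3 CPM in sham, 2381 and 2290.3 in mild, 2653 and 2903 in moderate, and 3069 and 3294 in severe, and lipid-laden macrophage markers, led by Spp1, to 5578 and 2081 CPM in sham, 2188 and 3224 in mild, 4912 and 11036 in moderate, and 1607 and 3628 in severe.

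Summed markers of dendritic cells lay between 17.7 and 36.7 CPM in the microglia, with Clec9a and Ccr7 at 0 in every library. Those of astrocytes, led by Slc1a3, ranged from 97.7 to 307 CPM, and those of oligodendrocyte precursors from 3.54 to 194 CPM with Gpr17 at 0. Neuronal markers ranged from 0 to 55.1 CPM with Rbfox3 at 0, endothelial markers from 3.54 to 34.8 CPM, T and NK cell markers from 4.72 to 38.5 CPM and B cell markers from 0 to 3.73 CPM with Pax5 at 0. Fibroblast markers, led by Mgp, were at 177 and 26.02 CPM in sham, 1978 and 14.7 in mild, 195 and 40.4 in moderate, and 14.2 and 599 in severe, and erythroid markers, led by Hba-a2, at 151 and 1.26 CPM in sham, 0 and 2.62 in mild, 0.650 and 0 in moderate, and 7.08 and 1791 in severe. Mild replicate 1 and severe replicate 2 were the highest for fibroblast markers and severe replicate 2 for erythroid markers. The part of these transcripts in the differences between groups was not tested beyond the values given.

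**Figure D1:**
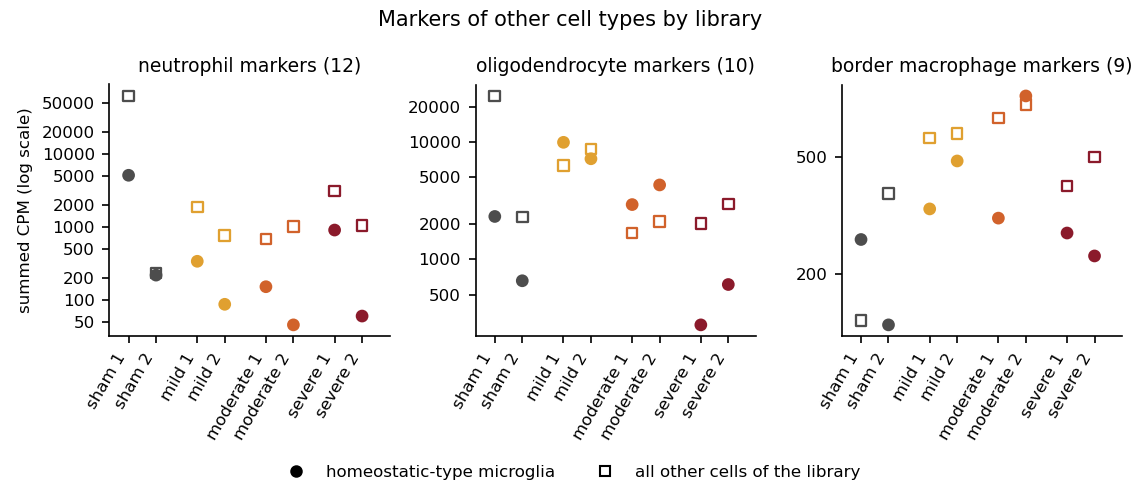
Summed levels of markers of neutrophils (12 genes), oligodendrocytes (10) and border macrophages (9) in CPM on a log axis, for homeostatic-type microglia (filled circles) and all other cells of the same library (open squares), by library. Neutrophil markers peak in sham replicate 1 in both sets, at 5105 and 62429 CPM, and oligodendrocyte markers in the microglia are highest in the mild libraries.

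The number of homeostatic-type microglia was 123 and 1094 in sham, 78 and 161 in mild, 342 and 29 in moderate, and 21 and 71 in severe, so that sham replicate 2 alone held 57.0% of them. As a share of C1q-high cells (at least 10 UMIs of the C1q genes), they made up 18.5 and 46.8% in sham, 3.63 and 4.25 in mild, 6.69 and 1.34 in moderate, and 4.23 and 2.92 in severe. On this scale both sham libraries were above every injured library. As a share of all cells that passed the limits on total UMIs and Mt- genes they made up 1.33 and 41.3% in sham, 1.04 and 1.90 in mild, 3.15 and 0.445 in moderate, and 0.526 and 0.876 in severe, so that sham replicate 1 was then below mild replicate 2 and moderate replicate 1. Without the limit on Cxcl1 the shares of C1q-high cells were 18.9 and 55.8% in sham, 6.28 and 6.30 in mild, 8.47 and 1.95 in moderate, and 11.3 and 15.1 in severe, and the severe libraries then came near sham replicate 1, with 95% Wilson intervals of 13.7 to 16.5% in severe replicate 2 and 16.2 to 22.1% in sham replicate 1. With the limit, the 95% Wilson interval was 15.7 to 21.6% in sham replicate 1, and the highest interval of an injured library, that of moderate replicate 1, was 6.04 to 7.41%. These intervals cover counting error only. The share is a description, since the rule is made of the counts it summarises, and fewer such cells cannot be told apart from cells that lowered the rule genes.

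Depth bears on a rule written in raw UMIs. The median microglia had 18117 and 9859.5 UMIs in sham, 14252.5 and 9142 in mild, 8119 and 12179 in moderate, and 13732 and 17376 in severe, and 3654 and 2384.5 genes in sham, 3275.5 and 2452 in mild, 2271 and 3011 in moderate, and 2793 and 3011 in severe. Cells with at least 5000 UMIs were also thinned to that depth before the rule was applied, and shallower cells were left out. The share of microglia among C1q-high cells was then 8.29 and 32.5% in sham, 0.744 and 1.70 in mild, 3.46 and 0.476 in moderate, and 2.68 and 1.74 in severe. In sham replicate 1 the C1q-high cells went from 665 to 422. The limits were not changed, and the upper ones are easier to meet with fewer UMIs. The order of sham replicate 1 above all injured libraries was kept, with 8.29% against a highest injured value of 3.46%. Sham replicate 1 was mostly of other cells, with only 7.20% of its cells C1q-high, against 88.4% in sham replicate 2. The limit on Cxcl1 removed 15 and 292 cells in sham, 296 and 207 in mild, 242 and 104 in moderate, and 47 and 550 in severe of those that had the C1q and identity UMIs. In severe replicate 2 this was 83.1% of them.

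**Figure D2:**
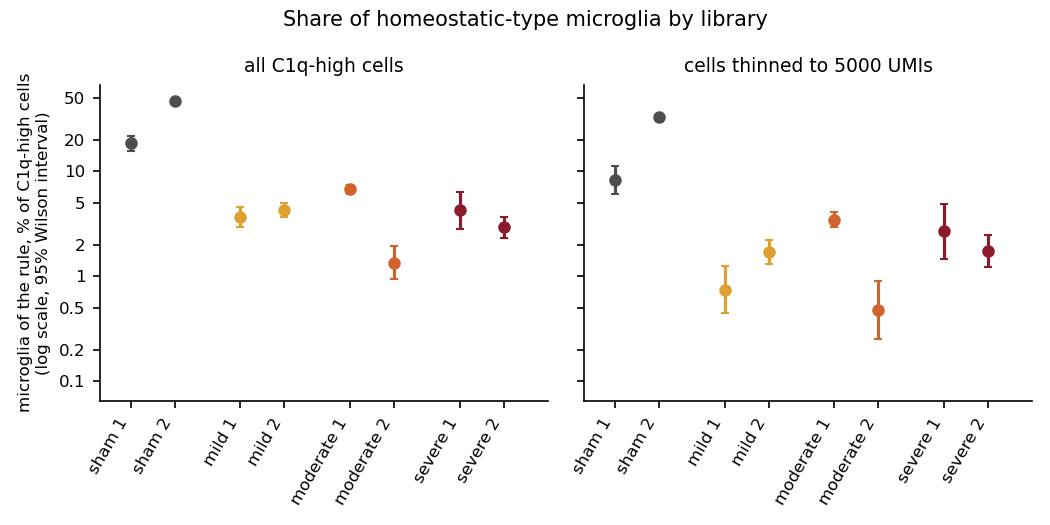
Share of homeostatic-type microglia among C1q-high cells in percent on a log axis, by library, from all C1q-high cells (left) and after thinning cells of at least 5000 UMIs to that depth (right). Points are single libraries and bars are 95% Wilson intervals. Both sham libraries lie above all 6 injured libraries in either panel, at 18.5 and 46.8% without thinning.

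Cells just inside and just outside the limits were close to each other. Microglia with 3 identity UMIs numbered 569, and 810 cells that met the other limits had 2. Their median depths were 9120 and 8757.5 UMIs and their median C1q counts were 165 and 156 UMIs. At the lower end of C1q, 12 microglia had 10 to 19 UMIs and 47 cells outside had 5 to 9. For the upper limits, 31 microglia had 4 UMIs of Cxcl1 and 36 cells outside had 5, 121 microglia had 1 UMI of Fabp4 and 24 cells outside had 2, and 216 microglia had 1 UMI of Mki67 and Top2a against 88 cells outside with 2. Most microglia had few identity UMIs above the limit of 3, with medians of 4 and 6 UMIs in sham, 4 and 3 in mild, 3 and 3 in moderate, and 4 and 5 in severe.

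Among the rule genes, P2ry12 was found in 74.0 and 91.7% of the microglia in sham, 78.2 and 64.0 in mild, 54.1 and 69.0 in moderate, and 81.0 and 78.9 in severe. Tmem119 was found in 66.7 to 100% across libraries and Sall1 in 38.1 to 67.1%. Sall1 was at 50.4 and 58.7% in sham, 62.8 and 67.1 in mild, 59.6 and 41.4 in moderate, and 38.1 and 42.3 in severe, so that both mild libraries were above and both severe libraries below the sham libraries. On the CPM scale after normalization by trimmed mean of M-values (TMM, used for all CPM below unless stated), P2ry12 was at 76.6 and 320 CPM in sham, 58.0 and 85.3 in mild, 81.2 and 81.6 in moderate, and 152 and 143 in severe, C1qa at 4898 and 7686 CPM in sham, 3881 and 6582 in mild, 5513 and 6101 in moderate, and 10639.5 and 9994 in severe. The levels of the rule genes were set by the choice of cells and are given without a test. No barcode of a microglial cell occurred in more than 1 library, while any pair of libraries shared 5 to 40 barcodes among all cells.

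For tests between groups the UMIs of the microglia were summed per library, and 9011 genes were tested with the quasi-likelihood test of edgeR in 1 fit of all groups. Every adjusted p below comes from this test, with Benjamini-Hochberg adjustment over all genes tested, and a gene was called at an adjusted p under 0.05. Log2 fold changes are followed by ± SE. Against sham, 369 genes were called in mild (4.09% of the genes tested), 271 of them higher (3.01%) and 98 lower (1.09%). In severe 18 were called (0.2%), 8 higher (0.0888%) and 10 lower (0.111%), and 0 were called in moderate (0%). In moderate 1048 genes had an unadjusted p under 0.05, and DESeq2 called 123. The mean of the 3 injured groups against sham gave 2 higher genes (0.0222%) and 14 lower genes (0.155%). Severe against mild gave 324 calls (3.6%), 111 higher (1.23%) and 213 lower (2.36%). The median log2 fold change of all genes was -0.06 in mild, -0.04 in moderate, -0.17 in severe, -0.10 in the mean of injured groups and -0.05 in severe against mild. Scaling by library size alone moved it to 0.16, 0.11, -0.37, -0.04 and -0.48, and gave 320 higher and 51 lower genes in mild and 67 higher and 373 lower genes in severe against mild.

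How many genes were called differed with single libraries. Without severe replicate 1 (21 microglia) or severe replicate 2, no gene was called by edgeR in severe or in the mean of injured groups, with 880 and 756 genes at an unadjusted p under 0.05 in severe and 1415 and 1177 in the mean. Severe against mild then gave 3 calls in both cases, and mild gave 100 and 110. Leaving out moderate replicate 1 or 2 gave 140 and 126 calls in mild, 5 and 5 in severe and 10 and 6 in the mean. Without sham replicate 1, the library with neutrophil transcripts, the mean of injured groups gave 132 calls that held all 16, and without sham replicate 2 it gave 200 that held 15 of them. Leaving out the same libraries gave 727 and 350 calls in mild, 179 and 66 in moderate, 28 and 165 in severe, and 639 and 649 in severe against mild. Without mild replicate 1 the mild comparison gave 13 calls, the mean of injured groups 10, moderate 4 and severe against mild 65, and without mild replicate 2 severe against mild gave 159. In mild, leaving out the 30 cells of glial profile left 1 call, with 1224 genes at an unadjusted p under 0.05. Of the called genes followed one by one under the alternatives, the calls of 2 of 29 in mild (Map1a and Ptprn) and 2 of 32 in severe against mild (Rps19 and Rps6) held whichever of the 8 libraries was left out, and none of the 7 in severe against sham or the 11 in the mean of injured groups did. With the glial-profile cells left out, 0 of the 29, 5 of the 32, 7 of the 7 and 9 of the 11 were called.

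**Figure D3:**
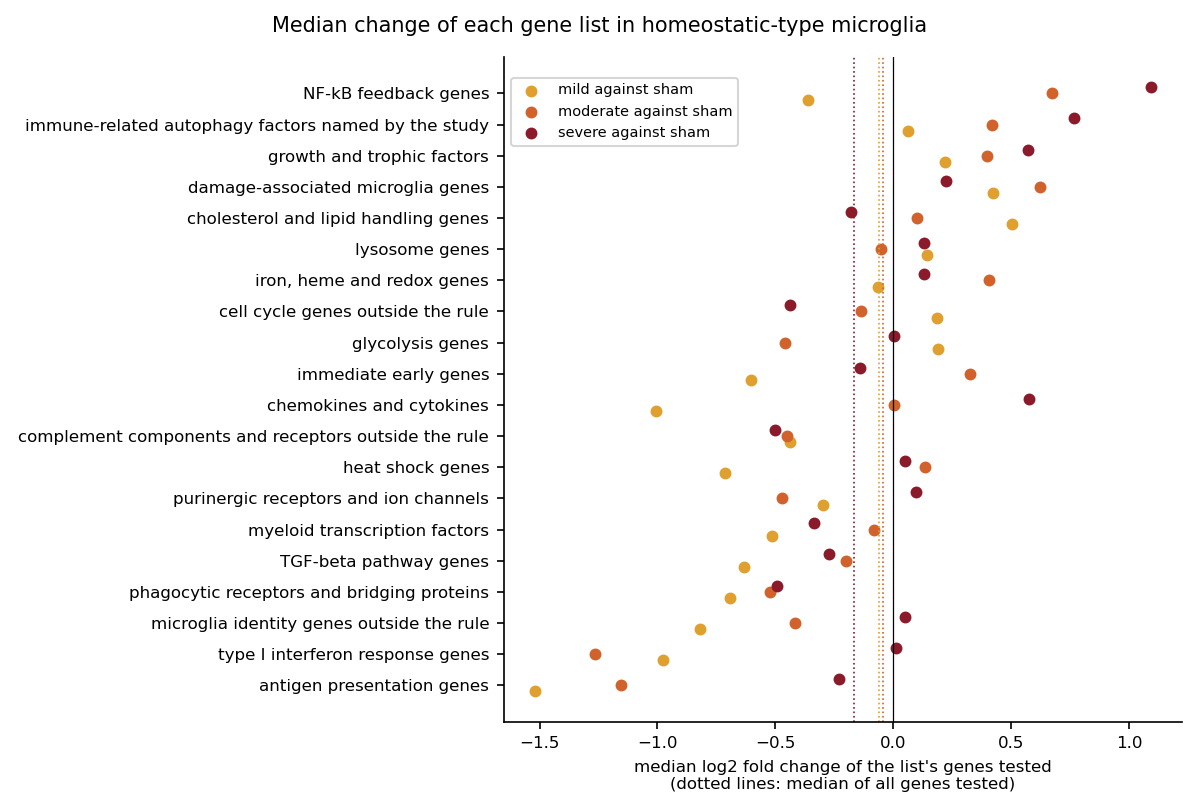
Median log2 fold change of the tested genes of each of 20 gene lists against sham, for mild (yellow), moderate (orange) and severe (dark red). Dotted lines mark the median of all genes tested in each comparison. Antigen presentation genes have the lowest mild median, -1.52, and NF-kB feedback genes the highest severe median, 1.09. When one or the other sham library was left out, 12 of the 20 medians changed sign in mild, 10 in moderate and 14 in severe, and those of damage-associated genes alone kept their sign in all 3.

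Some genes of major histocompatibility complex (MHC) class II were called lower in the microglia of injured cord than in sham. MHC class II molecules present peptides to CD4 T cells, and Cd74, the invariant chain, guides them through the cell. RT1-Da, RT1-Ba and RT1-Db1, which encode class II chains, and Cd74 were 4 of the 14 lower genes of the mean of injured groups. All 4 calls were lost without severe replicate 1 or severe replicate 2, and the class II gene RT1-Bb was not called. Of the 17 antigen presentation genes tested, these 4 were called lower and none higher, beside backgrounds of 0.155% and 0.0222%, and the median log2 fold change was -0.89 against -0.10 for all genes (-0.31 without sham replicate 1). The class II list was chosen with earlier results of these data known.

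The promoters of 3 of these genes are shown because the genes were lower in the same comparison. Class II promoters carry a conserved X and Y box, bound by regulatory factor X and NF-Y. Capitals mark the letters CTGATTGG, as in a Y box, and AGCAAC, as in part of an X box. Each sequence is the 250 bases before the gene start in RefSeq annotation of GRCr8, matched by gene symbol and written 5′ to 3′ on the strand of the gene. RT1-Da is at chr20:4515165-4515414 (plus strand), RT1-Db1 at chr20:4560163-4560412 (minus strand) and RT1-Ba at chr20:4576807-4577056 (plus strand).
RT1-Da: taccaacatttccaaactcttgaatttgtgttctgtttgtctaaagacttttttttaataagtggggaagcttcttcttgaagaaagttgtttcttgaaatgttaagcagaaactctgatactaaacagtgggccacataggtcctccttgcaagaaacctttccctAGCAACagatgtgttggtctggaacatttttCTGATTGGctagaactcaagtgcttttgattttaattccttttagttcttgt
RT1-Db1: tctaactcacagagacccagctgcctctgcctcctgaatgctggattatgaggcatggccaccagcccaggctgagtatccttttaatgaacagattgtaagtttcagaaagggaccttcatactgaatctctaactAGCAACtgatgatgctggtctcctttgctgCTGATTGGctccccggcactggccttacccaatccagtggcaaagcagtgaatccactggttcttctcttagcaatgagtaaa
RT1-Ba: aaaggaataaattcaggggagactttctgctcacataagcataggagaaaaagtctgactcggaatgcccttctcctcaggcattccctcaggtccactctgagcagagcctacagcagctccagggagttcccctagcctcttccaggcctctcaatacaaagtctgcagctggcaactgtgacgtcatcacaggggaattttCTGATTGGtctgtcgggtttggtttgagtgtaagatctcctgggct
RT1-Da and RT1-Db1 held both motifs, with CTGATTGG starting 52 and 83 bases before the gene start. RT1-Ba held CTGATTGG only. Of 6 class II genes searched on both strands, 5 had an entry, 4 held CTGATTGG and 2 held AGCAAC, without overlap between the motifs. Of 33469 rat promoters of the same length, 3.19% held CTGATTGG, 12.1% held AGCAAC and 0.433% held both. A match describes these letters alone, and no factor binding was measured.

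RT1-Da was at 503 and 314 CPM in sham, 29.0 and 40.3 in mild, 39.5 and 15.9 in moderate, and 23.9 and 44.9 in severe. The lower sham library was thus above the highest injured library. The fold change was close in the 3 groups, with log2 values of -3.55 ± 0.49 in mild, -3.75 ± 0.50 in moderate and -3.47 ± 0.51 in severe, and adjusted p-values of 0.00998, 0.0549 and 0.0401. For the mean of injured groups it was -3.59 ± 0.34 (adjusted p = 0.00507). The value without the glial-profile cells was -3.49 (adjusted p = 0.00343). The adjusted p was 0.0548 without severe replicate 1 and 0.0748 without severe replicate 2, and the call held without any other single library. Across all 9011 genes, 6.31% had both sham libraries above the 6 injured libraries and 2.83% below them.

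RT1-Ba was at 311 and 162 CPM in sham, 34.2 and 41.2 in mild, 19.7 and 9.07 in moderate, and 23.9 and 29.6 in severe, and the groups did not overlap (injured log2 fold change -3.20 ± 0.32, adjusted p = 0.00507). RT1-Db1 was at 401 and 148 CPM in sham, 26.9 and 47.9 in mild, 29.2 and 31.7 in moderate, and 16.0 and 40.2 in severe, again with both sham libraries above the rest (injured log2 fold change -3.06 ± 0.39, adjusted p = 0.0152). Cd74 was at 1349 and 880.1 CPM in sham, 233 and 225 in mild, 124 and 70.3 in moderate, and 116 and 264 in severe (injured log2 fold change -2.76 ± 0.33, adjusted p = 0.012). Moderate replicate 2 was the lowest library for RT1-Da, RT1-Ba and Cd74. The call of RT1-Ba was lost without severe replicate 1 (adjusted p = 0.0548) and severe replicate 2 (0.0857), and that of RT1-Db1 without moderate replicate 1 or 2 or severe replicate 1 or 2 (0.0707, 0.0844, 0.0947 and 0.102). That of Cd74 was lost without moderate replicate 2 (0.0551), severe replicate 1 (0.0548) and severe replicate 2 (0.0748). Without the limit on Cxcl1, RT1-Db1 and Cd74 had injured log2 fold changes of -2.82 and -2.61 (adjusted p = 0.0631 and 0.0608). RT1-Bb, another class II chain, was at 30.7 and 10.3 CPM in sham, 15.0 and 17.7 in mild, 10.3 and 4.53 in moderate, and 0 and 6.69 in severe (injured log2 fold change -1.16 ± 0.52, adjusted p = 0.343), RT1-DMa was listed at 0 in every library, and RT1-DMb and the class II transactivator Ciita were too low to be tested.

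After thinning to 3000 UMIs, RT1-Da was found in 47.2 and 25.9% of the microglia in sham, 12.05 and 9.38 in mild, 5.74 and 4.59 in moderate, and 5.52 and 7.78 in severe, and both sham libraries were above the rest. In oligodendrocytes, which should lack it, the share was 0 to 3.39% across libraries, and it was lower than in the microglia of the same library in all 8. Cd74 was found in 70.8 and 50.7% of the microglia in sham, 49.7 and 37.7 in mild, 23.3 and 15.6 in moderate, and 26.8 and 34.8 in severe, against 0.429 to 11.1% of oligodendrocytes. Mild replicate 1 was near sham replicate 2 for Cd74. The thinning left out 1 and 15 microglia of the sham replicates and 1 of moderate replicate 1. Median depths were 8119 to 18117 UMIs for microglia and 11193.5 to 22627.5 for oligodendrocytes. Without thinning RT1-Da was found in 10.3 to 66.7% of microglia and 0 to 11.2% of oligodendrocytes.

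In low-identity phagocytes RT1-Da was at 505 and 401 CPM in sham, 299 and 100.1 in mild, 172 and 92.8 in moderate, and 173 and 480.2 in severe (CPM without TMM scaling, here and in the next sentence). In the microglia it was at 536 and 272 CPM in sham, 33.2 and 44.0 in mild, 41.0 and 17.7 in moderate, and 21.2 and 36.2 in severe. The 2 cell sets were alike in sham replicate 1, and in the other 7 libraries, sham replicate 2 included, the microglia were lower. The test of the difference in injury effect between the cell sets, with the library as a block over 10249 genes, gave 0 calls (0%), with 300 genes at an unadjusted p under 0.05 and 3 calls by DESeq2, one of which was RT1-Da. The log2 difference of RT1-Da was -2.43 ± 0.41 (adjusted p = 0.307), that of Cd74 -1.58 ± 0.31 (adjusted p = 0.448). With each library left out in turn, the log2 difference ranged from -2.10 to -2.80 for RT1-Da and from -1.35 to -1.84 for Cd74. RT1-Ba and RT1-Db1 had log2 differences of -1.96 ± 0.41 and -2.02 ± 0.44 (adjusted p = 0.547 and 0.685). Their ranges with each library left out were -1.55 to -2.31 and -1.63 to -2.44. RT1-Da, Cd74, RT1-Ba and RT1-Db1 were called when mild replicate 1 or mild replicate 2 was left out, and not when any other library was.

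**Figure D4:**
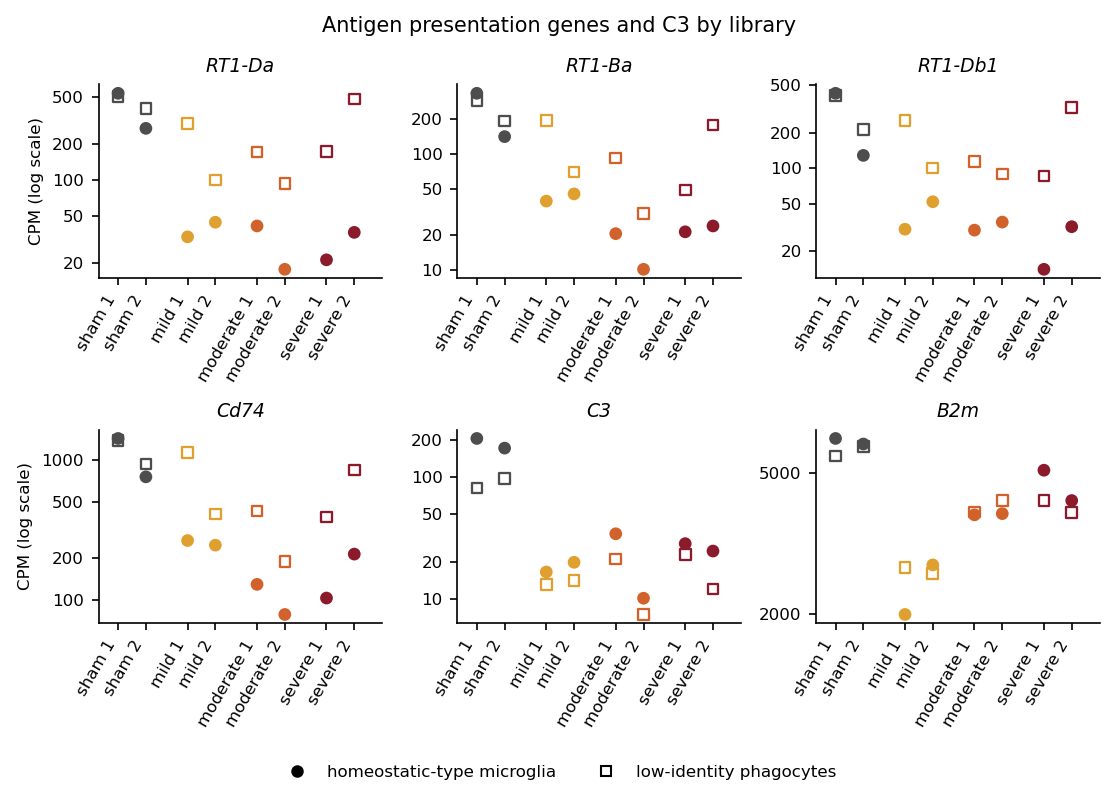
Levels of RT1-Da, RT1-Ba, RT1-Db1, Cd74, C3 and B2m by library in CPM without TMM scaling on log axes, in homeostatic-type microglia (filled circles) and low-identity phagocytes (open squares). In the microglia the 3 class II chains, Cd74 and C3 are higher in both sham libraries than in all 6 injured libraries.

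B2m, the light chain of class I molecules, was at 5851 and 6946 CPM in sham, 1750.2 and 2520.2 in mild, 3670.3 and 3445 in moderate, and 5725 and 5189 in severe. It was called lower in mild (log2 fold change -1.58 ± 0.36, adjusted p = 0.0438), and with RT1-Da, RT1-Ba, RT1-Db1 and Cd74 made up 5 lower genes of 17 beside a background of 1.09%. None of the 5 was called without the glial-profile cells, where B2m had an adjusted p of 0.159 and RT1-Da one of 0.0722. The call of B2m was lost without sham replicate 2 or any injured library (adjusted p = 0.0642 to 0.438), and those of RT1-Da and RT1-Ba without mild replicate 1 (adjusted p = 0.0979 to 0.167). That of RT1-Db1 was lost without mild replicate 1 or any moderate or severe library (adjusted p = 0.0539 to 0.219) and that of Cd74 without any mild or moderate library (adjusted p = 0.0527 to 0.239). Without the limit on Cxcl1 RT1-Db1 and Cd74 were not called in mild, at log2 fold changes of -2.50 and -2.07 (adjusted p = 0.0753 and 0.0754). Without the glial-profile cells the log2 fold change of B2m was -1.23, that of RT1-Da -3.24. In severe, 2 of 17 were called lower, RT1-Da and RT1-Ba, beside 0.111%. Both calls were lost without any moderate or severe library (adjusted p = 0.0585 to 0.457), and that of RT1-Da without the limit on Cxcl1 (-2.80, adjusted p = 0.119). The class I gene RT1-A2 was at 266 and 367 CPM in sham, 129 and 106 in mild, 307 and 401 in moderate, and 435 and 943 in severe, highest in severe replicate 2 (severe against mild log2 fold change 2.56 ± 0.43, adjusted p = 0.0161). Cd86 and Cd40, which give costimulatory signals to T cells, were also called higher in severe than in mild, with log2 fold changes of 2.25 ± 0.42 and 2.67 ± 0.58 (adjusted p = 0.0222 and 0.037). These were 3 of 17, beside 1.23%, and none of the 3 was called without mild replicate 1 or either severe library (adjusted p = 0.0696 to 0.233). Without the glial-profile cells their log2 fold changes were 2.16, 1.79 and 2.21 (adjusted p = 0.0564 to 0.189). RT1-A2 and Cd40 were not called without mild replicate 2 either (adjusted p = 0.0848 and 0.125). RT1 genes form a family of close copies, between which reads may have been split.

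C3, the central complement protein, was at 194 and 199 CPM in sham, 14.5 and 18.2 in mild, 32.9 and 9.07 in moderate, and 31.9 and 30.6 in severe. Both sham libraries were several-fold above the rest, and C3 was called lower for the mean of injured groups (log2 fold change -3.09 ± 0.33, adjusted p = 0.00549) and in mild (log2 fold change -3.58 ± 0.48, adjusted p = 0.00991). It was the only one of 11 complement genes tested that was called for the mean of injured groups. Over all genes 0.155% were called lower there and 0.0222% higher. The call of C3 was lost without severe replicate 1 (adjusted p = 0.0548) or 2 (0.102). In mild it was lost without mild replicate 1 (0.0954) and without the glial-profile cells (log2 fold change -3.13, adjusted p = 0.0722). In all other cells C3 was at 29.7 and 64.7 CPM in sham, 11.0 and 4.98 in mild, 7.604 and 2.92 in moderate, and 7.39 and 5.36 in severe. Both sham libraries were thus above every injured library there as well, so this order was not particular to the microglia. C2, a protease of the classical pathway, was at 66.9 and 31.4 CPM in sham, 7.26 and 10.5 in mild, 22.9 and 18.1 in moderate, and 75.8 and 41.1 in severe, lower in mild (log2 fold change -2.44 ± 0.50, adjusted p = 0.0327) and higher in severe than in mild (log2 fold change 2.63 ± 0.53, adjusted p = 0.0273). Cd59, which blocks the membrane attack complex, was at 25.7 and 12.01 CPM in sham, 109 and 71.4 in mild, 40.7 and 56.7 in moderate, and 11.97 and 13.4 in severe, higher in mild (log2 fold change 2.29 ± 0.44, adjusted p = 0.0286) and lower in severe than in mild (log2 fold change -2.79 ± 0.52, adjusted p = 0.0222). Of the 11 genes, C2 and C3 were called lower in mild, beside 1.09%, and Cd59 higher, beside 3.01%. In severe against mild C2 alone was called higher, beside 1.23%, and Cd59 alone lower, beside 2.36%. In mild the call of C2 was lost without any injured library (adjusted p = 0.0579 to 0.27). That of Cd59 was lost without sham replicate 2, mild replicate 1 or any moderate or severe library (adjusted p = 0.0505 to 0.195). In severe against mild C2 was lost without moderate replicate 1 or any mild or severe library (adjusted p = 0.0501 to 0.175) and Cd59 without mild replicate 1 or either severe library (adjusted p = 0.1 to 0.223), with Cd59 at -0.72 on the log2 scale (adjusted p = 0.338) without the limit on Cxcl1. Without the glial-profile cells the log2 fold changes in mild were -2.14 (adjusted p = 0.146) for C2 and 1.13 (adjusted p = 0.347) for Cd59. In severe against mild they were 2.25 (adjusted p = 0.129) and -1.16 (adjusted p = 0.579). The median of the list was -0.44, -0.45 and -0.50 in mild, moderate and severe, with mild at 0.01 without the glial-profile cells and severe at 0.10 without sham replicate 1.

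The other genes of the mean of injured groups were few. Angptl4, an inhibitor of lipoprotein lipase, was at 5.45 and 5.62 CPM in sham, 48.2 and 24.5 in mild, 29.5 and 45.3 in moderate, and 35.9 and 34.4 in severe. It was the only gene called higher (log2 fold change 2.68 ± 0.41, adjusted p = 0.0357) whose groups did not overlap, and its call was lost without mild replicate 1 or any moderate or severe library (adjusted p = 0.0564 to 0.243). The call was also lost without the limit on Cxcl1 (log2 fold change 2.48, adjusted p = 0.0576). Map1a, a microtubule protein of neurons, was the other higher gene (log2 fold change 3.40 ± 0.54, adjusted p = 0.0424), and was at 8.56 and 5.71 CPM in sham, 265 and 309.7 in mild, 109 and 206 in moderate, and 0 and 12.4 in severe. Its severe values lay around those of sham, its call was lost without mild replicate 1 or any moderate or severe library (adjusted p = 0.0548 to 1), and without the glial-profile cells its log2 fold change was 1.94 (adjusted p = 0.237). Without severe replicate 2 it was 0.82, and without the limit on Cxcl1 it was 2.85 (adjusted p = 0.0851). Clec12a, an inhibitory receptor of myeloid cells, was at 88.7 and 102 CPM in sham, 8.81 and 14.4 in mild, 18.8 and 22.7 in moderate, and 35.9 and 61.2 in severe (injured log2 fold change -2.05 ± 0.28, adjusted p = 0.0247). Its call was lost without mild replicate 1 or any moderate or severe library (adjusted p = 0.057 to 0.102). Slfn4 was at 152 and 108 CPM in sham, 2.07 and 7.19 in mild, 14.1 and 0 in moderate, and 27.9 and 44.9 in severe (injured log2 fold change -3.41 ± 0.49, adjusted p = 0.0262), and its adjusted p was 0.151 and 0.251 without severe replicates 1 and 2. Samd9, an interferon-induced gene, was at 55.2 and 59.1 CPM in sham, 10.9 and 8.15 in mild, 15.0 and 11.3 in moderate, and 27.9 and 35.4 in severe (injured log2 fold change -1.81 ± 0.27, adjusted p = 0.032). Its call was lost without any injured library (adjusted p = 0.0607 to 0.191) and without the glial-profile cells (log2 fold change -1.63, adjusted p = 0.0627). Clec12a, Samd9, Angptl4 and Map1a were chosen after their values were seen. Sumo4 was called too and is described with the severe group, and the remaining 5 lower genes were Tmem258b, LOC100360791, LOC690617 and the unnamed loci AABR07025010.1 and AABR07046628.1.

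Microglial identity genes outside the rule were lower in mild and moderate than in sham on the median, and near sham in severe. The median log2 fold changes of the 21 genes tested were -0.82, -0.42 and 0.05, against -0.06, -0.04 and -0.17 for all genes. Severe turned to -0.18 with scaling by library size alone and to -0.42 without sham replicate 1, and mild ranged from -1.30 without sham replicate 1 to -0.45 without sham replicate 2 and moderate from -0.83 to -0.08. The mild median was -0.44 without the glial-profile cells. None was called by edgeR for the mean of injured groups, with 8 at an unadjusted p under 0.05 and 2 called by DESeq2. Cst3, a secreted inhibitor of cathepsins, was at 33145.5 and 56739.6 CPM in sham, 5341 and 10543 in mild, 8514 and 5244 in moderate, and 33654 and 23462 in severe. The mild and moderate libraries were below all sham and severe libraries, and Cst3 was called lower in mild (log2 fold change -2.50 ± 0.52, adjusted p = 0.034). The cathepsin Ctss, which cleaves the invariant chain, was at 1503 and 805 CPM in sham, 139.9 and 336 in mild, 210 and 247 in moderate, and 399 and 249 in severe (mild log2 fold change -2.28 ± 0.50, adjusted p = 0.0381). These were the 2 called of 21, beside 1.09%. The call of Cst3 was lost without mild replicate 1 or either severe library (adjusted p = 0.0673 to 0.301) and that of Ctss without mild replicate 1 or any moderate or severe library (adjusted p = 0.0691 to 0.312). When the glial-profile cells were left out, their log2 fold changes in mild were -2.28 and -1.89 (adjusted p = 0.142 and 0.15).

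Identity genes that were not called spread more widely. Gpr34 was at 73.5 and 256 CPM in sham, 23.8 and 46.0 in mild, 79.9 and 52.1 in moderate, and 67.8 and 87.0 in severe (injured log2 fold change -1.54 ± 0.42, adjusted p = 0.179). Csf1r was at 673 and 1066 CPM in sham, 677 and 919 in mild, 1046 and 743 in moderate, and 1201 and 763 in severe, and the groups overlapped. Selplg, a ligand of selectins, was at 15.6 and 8.52 CPM in sham, 1.04 and 1.92 in mild, 5.33 and 2.27 in moderate, and 0 and 3.83 in severe (injured log2 fold change -2.12 ± 0.55, adjusted p = 0.173), a level of few UMIs in the injured libraries. Mertk, a receptor for dying cells, was listed with the phagocytic receptors and not with the identity genes. It was at 80.1 and 81.1 CPM in sham, 22.8 and 68.6 in mild, 60.8 and 49.9 in moderate, and 47.9 and 33.5 in severe (injured log2 fold change -0.80 ± 0.37, adjusted p = 0.359). The 2 sham libraries were above all others for Mertk, as in 6.31% of all genes. Olfml3, a secreted protein of microglia, was at 1.17 and 1.65 CPM in sham, 59.1 and 5.27 in mild, 5.96 and 0 in moderate, and 0 and 15.3 in severe, so that mild replicate 1 stood alone.

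Interferon response genes were lower in mild and moderate on the median, at -0.97 and -1.26, and at 0.01 in severe, where it was -0.14 with scaling by library size alone and -0.25 without sham replicate 1. Bst2 (tetherin, which holds viruses at the cell surface) was at 317 and 285 CPM in sham, 22.3 and 17.3 in mild, 171 and 38.5 in moderate, and 219 and 193 in severe. It was called lower in mild (log2 fold change -3.93 ± 0.59, adjusted p = 0.0131) and higher in severe than in mild (log2 fold change 3.38 ± 0.59, adjusted p = 0.0182). Ifit3 was at 45.1 and 24.9 CPM in sham, 1.55 and 8.63 in mild, 4.39 and 2.27 in moderate, and 59.8 and 48.8 in severe and Isg15, a ubiquitin-like protein, at 64.2 and 76.4 CPM in sham, 21.2 and 21.6 in mild, 14.4 and 6.80 in moderate, and 47.9 and 93.7 in severe. Both were called lower in mild, with log2 fold changes of -2.74 ± 0.63 and -1.72 ± 0.41 (adjusted p = 0.0447 and 0.0485), so that 3 of 17 were lower beside 1.09%. None of the 3 was called without the glial-profile cells (adjusted p = 0.0804 to 0.2), where the log2 fold changes were -3.49 for Bst2, -1.93 for Ifit3 and -1.26 for Isg15. The call of Bst2 was lost without mild replicate 1 (adjusted p = 0.0972), that of Ifit3 without mild replicate 1 or any moderate or severe library (adjusted p = 0.0715 to 0.291) and that of Isg15 without sham replicate 2 or any injured library (adjusted p = 0.0662 to 0.344). Isg15 was also not called in mild without the limit on Cxcl1 (log2 fold change -1.64, adjusted p = 0.0685). In severe against mild 4 of 17 were higher, Oasl being the fourth, beside 1.23%, and none was called without mild replicate 1 or either severe library (adjusted p = 0.0872 to 0.395), nor without the glial-profile cells (0.0564 to 0.259). The log2 fold changes without those cells were 2.90 for Bst2, 3.04 for Ifit3, 1.33 for Isg15 and 2.12 for Oasl. Without mild replicate 2 Ifit3 alone was called of these 4, and Isg15 was lost without the limit on Cxcl1 (log2 fold change 1.32, adjusted p = 0.117). Isg15 was lost without moderate replicate 1 (0.0751) or 2 (0.068) too. Irf7, a transcription factor of the response, was at 36.6 and 21.1 CPM in sham, 6.74 and 12.5 in mild, 5.33 and 2.27 in moderate, and 7.98 and 4.78 in severe (injured log2 fold change -2.17 ± 0.40, adjusted p = 0.0882). In all other cells Isg15 was at 459.8 and 89.3 CPM in sham, 25.1 and 20.5 in mild, 23.3 and 8.94 in moderate, and 51.4 and 43.8 in severe, with sham replicate 1 the highest.

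The largest rises in mild were of genes known from neurons and glia. Trh, a neuropeptide precursor, was at 3.89 and 0 CPM in sham, 265 and 122 in mild, 6.27 and 2.27 in moderate, and 0 and 0 in severe, and Map1a was described above. Map1b, a microtubule protein, was at 21.4 and 5.04 CPM in sham, 309 and 189 in mild, 71.2 and 99.7 in moderate, and 0 and 21.0 in severe (mild log2 fold change 4.31 ± 0.78, adjusted p = 0.024). Slain1, which acts on microtubule ends, was at 10.9 and 3.003 CPM in sham, 125 and 90.1 in mild, 31.7 and 52.1 in moderate, and 0 and 0 in severe. Ptprn, a protein of secretory granules, was at 9.72 and 4.46 CPM in sham, 147 and 122 in mild, 20.4 and 40.8 in moderate, and 0 and 2.87 in severe (mild log2 fold change 4.32 ± 0.53, adjusted p = 0.00991). The myelin genes Cnp and Mbp were called higher in mild as well, with log2 fold changes of 2.34 ± 0.35 and 2.61 ± 0.56 (adjusted p = 0.0123 and 0.0359), and with Ermn and Mal made 4 of 10 oligodendrocyte markers, beside 3.01%. Without the 30 cells of glial profile, Map1a, Map1b, Slain1, Ptprn, Cnp and Mbp were not called, and Trh was too low to be tested. The log2 fold change was then -0.01 for Mbp, 1.05 for Cnp, 2.60 for Slain1, 2.66 for Ptprn, 3.23 for Map1a and 4.90 for Map1b. The calls of Cnp, Map1b, Slain1 and Trh were also lost without mild replicate 1 (adjusted p = 0.0786 to 0.0979), that of Trh without severe replicate 1 (0.0511) and that of Mbp without sham replicate 2, mild replicate 1 or either severe library (adjusted p = 0.0595 to 0.233). Without the limit on Cxcl1 Mbp was not called either (log2 fold change 2.41, adjusted p = 0.0543). Megf10, an engulfment receptor of astrocytes, was the only phagocytic receptor called in mild, 1 of 13 tested, beside 3.01% of all genes called higher. It was at 0.778 and 0.775 CPM in sham, 11.4 and 6.71 in mild, 2.51 and 6.80 in moderate, and 0 and 0 in severe, with 0 UMIs in severe (mild log2 fold change 3.47 ± 0.80, adjusted p = 0.0486). Its call was lost whichever of the 8 libraries was left out (adjusted p = 0.0777 to 0.446) and without the limit on Cxcl1 (0.0594).

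Of the named genes called lower in mild, Grxcr1 was at 141 and 271 CPM in sham, 15.5 and 9.59 in mild, 91.2 and 18.1 in moderate, and 83.8 and 94.7 in severe (mild log2 fold change -4.04 ± 0.66, adjusted p = 0.0181). Cd84, an adhesion receptor of leukocytes, was at 42.0 and 335 CPM in sham, 9.33 and 21.6 in mild, 58.3 and 40.8 in moderate, and 116 and 135 in severe (mild log2 fold change -3.61 ± 0.82, adjusted p = 0.0428), with sham replicate 2 well above sham replicate 1. The T cell coreceptor genes Cd4 and Cd8a, which rat macrophages can express, went opposite ways. Cd4 was at 29.6 and 25.2 CPM in sham, 4.15 and 4.32 in mild, 13.2 and 2.27 in moderate, and 23.9 and 11.5 in severe (mild log2 fold change -2.68 ± 0.58, adjusted p = 0.0373). Cd8a was at 13.2 and 13.9 CPM in sham, 70.0 and 137 in mild, 112 and 281 in moderate, and 19.9 and 88.0 in severe (mild log2 fold change 2.92 ± 0.63, adjusted p = 0.0372). Severe libraries lay between sham and mild for Cd4. The call of Cd4 was lost without any mild or severe library (adjusted p = 0.0661 to 0.286) and that of Cd8a without sham replicate 2 or any injured library (adjusted p = 0.053 to 0.1). The call of Grxcr1 was lost without mild replicate 1 or severe replicate 1 (adjusted p = 0.0511 to 0.0979) and that of Cd84 without sham replicate 2 or any injured library (adjusted p = 0.0644 to 0.3), with a log2 fold change of -1.43 for Cd84 without sham replicate 2. With the glial-profile cells left out the log2 fold changes were -3.56 (adjusted p = 0.0904) for Grxcr1, -3.14 (adjusted p = 0.146) for Cd84, -2.30 (adjusted p = 0.151) for Cd4 and 3.34 (adjusted p = 0.0925) for Cd8a. Without the limit on Cxcl1 Cd4 and Cd84 were not called, at -2.52 and -3.46 (adjusted p = 0.0591 and 0.0619).

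Of 18 chemokines and cytokines tested, Il1b, Il1a and Cxcl2 were called higher in severe than in mild, beside 1.23%, none was called lower, and the median log2 fold change was 1.86 against -0.05 for all genes. Il1b, a fever-inducing cytokine, was at 37.3 and 365 CPM in sham, 92.3 and 169 in mild, 280.2 and 286 in moderate, and 3183 and 2919.5 in severe. Both severe libraries were above the other 6, as in 6.41% of all genes. Across all genes, 23.1% had both severe libraries above both mild libraries and 29.8% below them. Il1b was called (severe against mild log2 fold change 4.55 ± 0.87, adjusted p = 0.0246), while the difference from sham did not pass the test (log2 fold change 3.91 ± 0.84, adjusted p = 0.119). In all other cells it was at 328 and 241 CPM in sham, 148 and 133 in mild, 123 and 249 in moderate, and 1712 and 2079 in severe, with the severe libraries again the highest. After thinning to 3000 UMIs, Il1b was found in 11.1 and 44.9% of the microglia in sham, 27.3 and 28.1 in mild, 34.7 and 42.1 in moderate, and 86.4 and 64.8 in severe, and in 0.796 to 9.04% of oligodendrocytes.

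Cxcl2, a chemokine for neutrophils, was at 253 and 573 CPM in sham, 336 and 321 in mild, 585 and 331 in moderate, and 4149 and 2064 in severe (severe against mild log2 fold change 3.24 ± 0.54, adjusted p = 0.015). Il1a was at 5.83 and 25.4 CPM in sham, 1.04 and 3.84 in mild, 9.09 and 36.3 in moderate, and 55.9 and 71.7 in severe (severe against mild log2 fold change 4.69 ± 0.93, adjusted p = 0.0259). Ccl4 and Ccl3, chemokines that were among the most abundant transcripts of the list, were at 1109.7 and 4878 CPM in sham, 1388 and 1525 in mild, 2323 and 6745 in moderate, and 8968 and 7374 in severe and at 567 and 3281 CPM in sham, 843 and 1072 in mild, 1615 and 2056 in moderate, and 2633 and 3044 in severe. They were not called (severe against mild adjusted p = 0.0836 and 0.231), and sham replicate 2 was above the mild libraries for both. Tnf was low in every library, at 0 to 13.4 CPM. Cxcl1 was part of the rule and is not compared. Without that limit the severe against mild comparison gave 624 calls, the log2 fold change of Il1b was 4.82 and that of Cxcl2 3.34. The calls of Il1b, Il1a and Cxcl2 were all lost without any mild or severe library (adjusted p = 0.0514 to 0.222). Without the glial-profile cells the log2 fold changes of Il1b and Il1a were 4.10 (adjusted p = 0.0564) and 4.20 (adjusted p = 0.0796).

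Rel, a subunit of NF-kB, was at 19.1 and 32.3 CPM in sham, 9.85 and 21.6 in mild, 86.8 and 70.3 in moderate, and 211 and 123 in severe (severe against mild log2 fold change 3.38 ± 0.50, adjusted p = 0.0129). Birc3 and Bcl2a1, which restrain cell death, were the 2 of 14 NF-kB feedback genes called higher in severe than in mild, beside 1.23%. Birc3 was at 1.56 and 2.91 CPM in sham, 2.07 and 3.36 in mild, 6.90 and 20.4 in moderate, and 75.8 and 27.7 in severe (severe against mild log2 fold change 4.10 ± 0.76, adjusted p = 0.022). Bcl2a1 was at 229.9 and 652 CPM in sham, 208 and 310.2 in mild, 376 and 1108 in moderate, and 2342 and 1611 in severe (severe against mild log2 fold change 2.93 ± 0.63, adjusted p = 0.035). Icam1, an adhesion molecule, was at 34.6 and 150 CPM in sham, 48.7 and 94.5 in mild, 134 and 292 in moderate, and 694 and 309.8 in severe and was not called (log2 fold change 2.79 ± 0.72, adjusted p = 0.0641). Medians of the list were -0.36, 0.67 and 1.09 against sham. That of mild was 0.07 without the glial-profile cells and ranged from -1.02 to 1.11 and that of severe from 0.50 to 2.99 without one or the other sham library. Cks2, a regulator of cyclin-dependent kinases, and Gadd45b, a stress-induced gene, were called higher in severe against sham. Cks2 was at 20.6 and 47.7 CPM in sham, 17.1 and 12.5 in mild, 78.7 and 111 in moderate, and 423 and 232 in severe (severe log2 fold change 3.22 ± 0.49, adjusted p = 0.0401). Gadd45b was at 71.2 and 138 CPM in sham, 167 and 169.7 in mild, 416 and 392 in moderate, and 926 and 543 in severe (severe log2 fold change 2.80 ± 0.43, adjusted p = 0.0401), with moderate between mild and severe for both. Against sham the call of Cks2 was lost without any moderate or severe library (adjusted p = 0.0777 to 0.291). That of Gadd45b was lost without sham replicate 1 or any injured library (adjusted p = 0.053 to 0.291). Against mild Cks2 was lost without either severe library (adjusted p = 0.0541 to 0.0706) and Rel without mild replicate 1 or either severe library (adjusted p = 0.0632 to 0.0968). Birc3 was lost without any mild or severe library (adjusted p = 0.0588 to 0.146) and Bcl2a1 without any mild or severe library (adjusted p = 0.092 to 0.211). Without the glial-profile cells their log2 fold changes against mild were 3.62 and 2.49 (adjusted p = 0.0715 and 0.135).

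Some genes set the severe libraries apart in the microglia and elsewhere. Rps19, a ribosomal protein gene, was at 144 and 212 CPM in sham, 36.8 and 32.6 in mild, 70.2 and 74.8 in moderate, and 1791 and 1644 in severe in the microglia (severe log2 fold change 3.27 ± 0.36, adjusted p = 0.00897). In all other cells it was at 88.4 and 173 CPM in sham, 38.5 and 39.9 in mild, 78.4 and 65.6 in moderate, and 1506 and 1082 in severe. Rps6 was at 99.2 and 82.3 CPM in sham, 18.7 and 15.3 in mild, 48.6 and 38.5 in moderate, and 423 and 645 in severe (severe log2 fold change 2.56 ± 0.36, adjusted p = 0.0395). In all other cells Rps6 was at 53.9 and 64.5 CPM in sham, 19.5 and 15.1 in mild, 39.6 and 39.2 in moderate, and 303 and 348 in severe. Sumo4 went the other way, at 158 and 323 CPM in sham, 81.4 and 51.3 in mild, 61.1 and 54.4 in moderate, and 7.98 and 4.78 in severe (severe log2 fold change -5.42 ± 0.59, adjusted p = 0.00897), and was at 113 and 362 CPM in sham, 95.7 and 65.0 in mild, 74.8 and 74.2 in moderate, and 9.01 and 3.92 in severe in all other cells. The 101 Rps and Rpl genes together took 10.6 to 17.9% of microglial UMIs over the libraries, at 15.6 and 17.9% in severe. These genes have near-identical copies in the genome, so their counts are uncertain. Without severe replicate 1 or 2 no severe call against sham was kept, and for these 3 genes the adjusted p was then 0.126 to 0.251. That of Rps6 was lost without moderate replicate 1 (0.072) or 2 (0.0701) too.

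**Figure D5:**
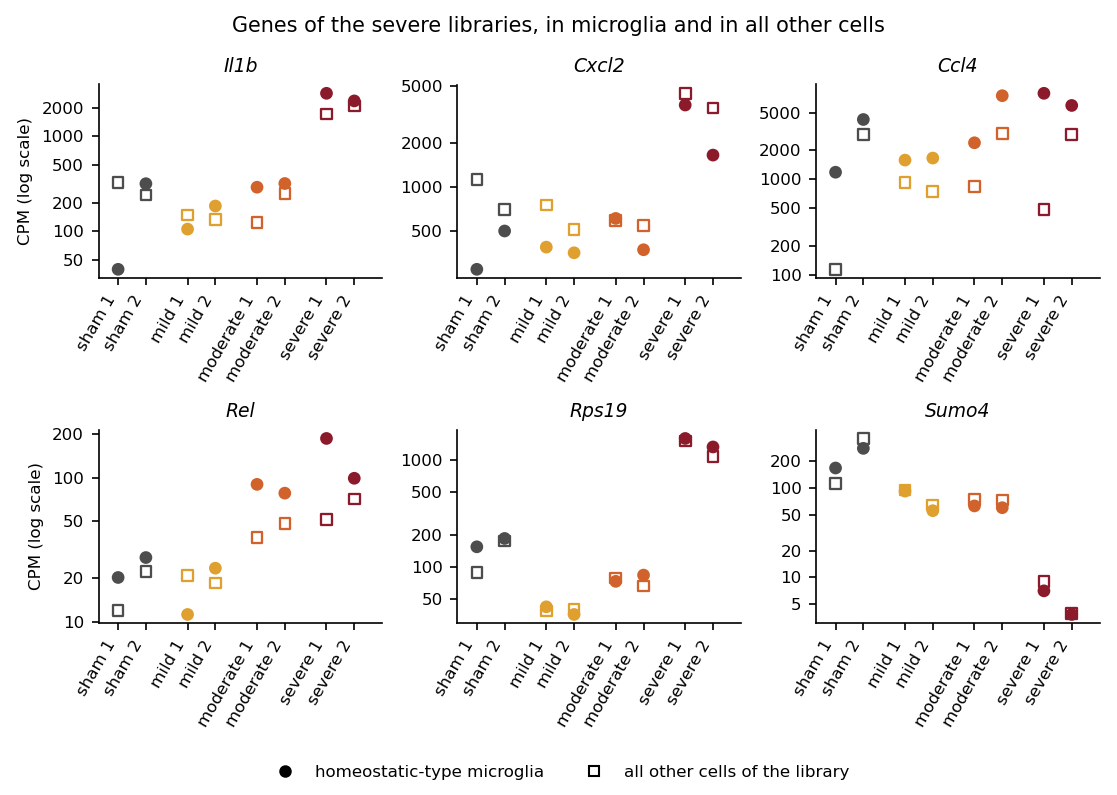
Levels of Il1b, Cxcl2, Ccl4, Rel, Rps19 and Sumo4 by library in CPM without TMM scaling on log axes, in homeostatic-type microglia (filled circles) and all other cells of the library (open squares). Il1b, Cxcl2, Rel and Rps19 are highest and Sumo4 lowest in both severe libraries in the microglia, and these 5 genes have the same pattern in the other cells.

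Genes lower in severe than in mild included those that set the mild libraries apart. Of 10 oligodendrocyte markers, 6 were called lower, beside 2.36%, with a median of -3.71. Without the glial-profile cells 0 were called and the median was -0.25. Trh, Slain1 and Tmem117 had 0 UMIs in both severe libraries, which allows up to 11.97 and 2.87 CPM, the level of 3 UMIs in each. Tmem117 was at 11.7 and 3.20 CPM in sham, 134 and 66.6 in mild, 26.6 and 47.6 in moderate, and 0 and 0 in severe. The neuronal genes Uchl1, Apbb1 and Fez1 were at 207 and 113 CPM, 152 and 118 CPM, and 141 and 122 CPM in mild, and at 0 in severe replicate 1 and 0.956, 0.956 and 0.956 CPM in severe replicate 2. Severe replicate 1 had 21 microglia. Without the glial-profile cells Slain1, Tmem117, Uchl1, Apbb1 and Fez1 were not called but had fitted log2 values of -7.50, -7.90, -5.31, -4.36 and -4.63, which depend on the prior count of the fit, and Trh was too low to be tested. All 6 calls were lost without either severe library (adjusted p = 0.0876 to 0.342), and those of Trh and Uchl1 without mild replicate 1 or either moderate library (0.0522 to 0.0998).

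Damage-associated genes, which microglia raise around plaques and lesions, were not called by edgeR in any comparison (0 of 22), with 2 to 7 of them at an unadjusted p under 0.05 and 0 to 2 called by DESeq2. Their median log2 fold changes were 0.42, 0.62 and 0.22 against sham, above the medians of all genes, and that of severe was -0.01 with scaling by library size alone. Without one or the other sham library they ranged from 0.09 to 0.82 in mild, 0.29 to 0.86 in moderate and 0.28 to 0.64 in severe. Gpnmb, a lysosomal membrane protein, was at 336 and 457 CPM in sham, 673 and 1654 in mild, 1300.2 and 1836 in moderate, and 630.3 and 695 in severe. All injured libraries were above both sham libraries, as in 2.83% of all genes, but the difference did not pass the test (injured log2 fold change 1.42 ± 0.40, adjusted p = 0.187). Apoe was at 3892 and 10268 CPM in sham, 4252 and 12988 in mild, 19073 and 22379.8 in moderate, and 11589 and 13539 in severe (injured log2 fold change 0.89 ± 0.50, adjusted p = 0.454), with moderate the highest. Spp1, osteopontin, was at 4892 and 1944 CPM in sham, 1232 and 1282 in mild, 3415 and 8032 in moderate, and 1177 and 3806 in severe and the groups overlapped. Cd63, a tetraspanin of late endosomes, was at 2207 and 1671 CPM in sham, 3189 and 3253 in mild, 2519 and 4331 in moderate, and 2318 and 3329.7 in severe (injured log2 fold change 0.70 ± 0.34, adjusted p = 0.374). Trem2, the lipid-sensing receptor, was at 342 and 1309 CPM in sham, 420.3 and 1063 in mild, 886 and 784 in moderate, and 1017 and 1218 in severe, and sham replicate 2 was the highest.

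Lysosome genes (0 of 24 called) and cholesterol and lipid handling genes (0 of 20) were not called in any comparison, with 1 to 4 and 2 to 8 of them at an unadjusted p under 0.05 and 0 and at most 3 called by DESeq2. Psap, a precursor of sphingolipid activators, was at 1266 and 4435 CPM in sham, 2969 and 3958 in mild, 3135 and 3118 in moderate, and 4747 and 3251 in severe. Medians of the lysosome list were 0.14, -0.05 and 0.13 (-0.30 and 0.44 in mild, -0.23 and 0.43 in moderate and -0.12 and 0.38 in severe without sham replicates 1 and 2 in turn), and those of the lipid list 0.50, 0.10 and -0.18 (0.11, -0.17 and 0.32 without the glial-profile cells, with severe at 0.11 without sham replicate 1). Apoc1, an apolipoprotein, was at 5.06 and 35.0 CPM in sham, 17.6 and 59.0 in mild, 310 and 186 in moderate, and 67.8 and 84.2 in severe, with moderate the highest (moderate log2 fold change 3.58 ± 0.79, adjusted p = 0.141). In low-identity phagocytes Apoc1 was at 6.83 and 42.5 CPM in sham, 271 and 324 in mild, 929.6 and 318 in moderate, and 1001 and 961 in severe without TMM scaling, above the microglia of the same library in all 8. Purinergic receptors and ion channels (0 of 10, with 0 to 3 at an unadjusted p under 0.05 and 0 called by DESeq2) had medians of -0.30, -0.47 and 0.09. Mild was at 0.12 without the glial-profile cells, moderate at 0.12 without sham replicate 2 and severe at -0.17 without sham replicate 1. TGF-beta pathway genes (0 of 14, 0 to 3 and at most 1) had medians of -0.63, -0.20 and -0.27 (0.02, 0.52 and 0.15 without sham replicate 2). Phagocytic receptors and bridging proteins (1 of 13 called, higher in mild, beside 3.01%) had medians of -0.69, -0.52 and -0.49 (-0.17, 0.00 and -0.21 without sham replicate 1).

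Of 18 myeloid transcription factors tested, Bhlhe41 was called lower in mild (log2 fold change -2.65 ± 0.58, adjusted p = 0.0372), beside 1.09%. Cebpb was called higher in severe than in mild (log2 fold change 2.55 ± 0.59, adjusted p = 0.0455), beside 1.23%. Cebpb, an activator of inflammatory genes, was at 879 and 646 CPM in sham, 281 and 299.7 in mild, 306 and 911 in moderate, and 2493 and 927 in severe. The call of Bhlhe41 was lost without sham replicate 1 or any injured library (adjusted p = 0.0581 to 0.341) and that of Cebpb without any mild or severe library (adjusted p = 0.125 to 0.288). Without the glial-profile cells their log2 fold changes were -2.34 (adjusted p = 0.151) and 2.15 (adjusted p = 0.201). The medians were -0.52, -0.08 and -0.34, and without sham replicates 1 and 2 in turn -0.75 and 0.11 in mild, -0.16 and 0.77 in moderate and -0.55 and 0.67 in severe. Immediate early genes (0 of 18, with 1 to 6 at an unadjusted p under 0.05 and at most 2 called by DESeq2) had medians of -0.61, 0.32 and -0.14, which became -1.10, -0.31 and -0.78 without sham replicate 1 and 1.74, 2.10 and 1.65 without sham replicate 2. Fos was at 385 and 2017 CPM in sham, 2067 and 2863.5 in mild, 3156 and 265 in moderate, and 187 and 571 in severe, and the moderate replicates were the highest and the second lowest value. Heat shock genes had medians of -0.71, 0.14 and 0.05, with 1 of 14 called. This was Dnaja1, higher in severe than in mild (log2 fold change 2.48 ± 0.47, adjusted p = 0.0225), beside 1.23%. Its call was lost without any mild or severe library (adjusted p = 0.0997 to 0.145) and without the glial-profile cells (log2 fold change 2.36, adjusted p = 0.0564). Without sham replicate 1 and without sham replicate 2 the heat shock medians were 0.35 and -1.19 in mild, 1.52 and -0.32 in moderate and 1.42 and -0.48 in severe. Hspa1b was at 4537 and 19.95 CPM in sham, 49.8 and 64.7 in mild, 868 and 326 in moderate, and 1001 and 1449.7 in severe, and the 2 sham libraries were the extremes.

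Cell cycle genes outside the rule (0 of 19, with 2 to 5 at an unadjusted p under 0.05 and at most 1 called by DESeq2) had medians of 0.18, -0.14 and -0.44 and glycolysis genes of 0.19, -0.46 and 0.00, with 1 of 14 called. Without sham replicates 1 and 2 in turn the cell cycle medians were 0.81 and -0.22 in mild, 0.49 and -0.54 in moderate and 0.22 and -0.69 in severe, and the glycolysis medians 0.33 and -0.26 in mild, -0.21 and -0.71 in moderate and 0.41 and -0.32 in severe. The glycolysis gene called was Tpi1, higher in severe than in mild (log2 fold change 2.83 ± 0.65, adjusted p = 0.043), beside 1.23% of all genes. Iron, heme and redox genes had medians of -0.06, 0.40 and 0.13. Of 17, the iron oxidase Cp was called lower in mild (log2 fold change -1.74 ± 0.41, adjusted p = 0.0475), beside 1.09%. The ferritin light chain Ftl1 was called higher in severe than in mild (log2 fold change 2.41 ± 0.49, adjusted p = 0.0288), beside 1.23%. Ftl1 was at 2487 and 6463 CPM in sham, 2000 and 3027 in mild, 3530.2 and 3288 in moderate, and 13472 and 13182 in severe, and in all other cells at 1550.3 and 8687 CPM in sham, 4017 and 4105 in mild, 4601 and 3927 in moderate, and 14074 and 15094 in severe. Growth and trophic factors had medians of 0.22, 0.40 and 0.57, with 1 of 11 called, higher in severe than in mild, beside 1.23%. This was Vegfa, a growth factor for vessels, at 5.45 and 5.42 CPM in sham, 3.11 and 0.959 in mild, 13.5 and 11.3 in moderate, and 23.9 and 16.3 in severe (severe against mild log2 fold change 3.21 ± 0.67, adjusted p = 0.0309). The call of Tpi1 was lost without mild replicate 2 or any moderate or severe library (adjusted p = 0.0681 to 0.242) and that of Ftl1 without any mild or severe library (adjusted p = 0.0837 to 0.23). That of Vegfa was lost without any injured library (adjusted p = 0.0524 to 0.188), and without the limit on Cxcl1 its log2 fold change was 1.29 (adjusted p = 0.109). Without the glial-profile cells the log2 fold changes were 2.65 (adjusted p = 0.173) for Tpi1, 2.20 (0.0712) for Ftl1 and 3.35 (0.0927) for Vegfa. The call of Cp in mild was lost without sham replicate 1 or any injured library (adjusted p = 0.0656 to 0.339). Its log2 fold change was -1.55 (adjusted p = 0.0594) without the limit on Cxcl1 and -1.68 (adjusted p = 0.151) without the glial-profile cells.

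The study scored cells by 8 immune-related autophagy factors, which it chose with these samples in view. In the microglia 0 of 8 were called by edgeR against sham in any group, with 2 to 4 at an unadjusted p under 0.05 over all comparisons and at most 2 called by DESeq2. Vegfa was the 1 called in severe against mild, where 1.23% of all genes were called higher. Birc5, an inhibitor of apoptosis that is also active in mitosis, was at 8.17 and 12.7 CPM in sham, 38.9 and 24.0 in mild, 21.9 and 20.4 in moderate, and 31.9 and 45.9 in severe. All 6 injured libraries were above both sham libraries, as in 2.83% of all genes, without passing the test (injured log2 fold change 1.49 ± 0.37, adjusted p = 0.158). Cxcr4, the receptor for Cxcl12, was at 0.778 and 1.84 CPM in sham, 9.33 and 5.75 in mild, 19.4 and 18.1 in moderate, and 0 and 6.69 in severe (injured log2 fold change 2.56 ± 0.63, adjusted p = 0.158). The protease Ctsb was at 2243 and 3697 CPM in sham, 3463 and 5393 in mild, 4266 and 4789 in moderate, and 3702 and 4309.9 in severe, the chaperones Hspa8 and Hspa5 at 1444 and 1065 CPM in sham, 1118 and 1009 in mild, 1209.6 and 1589 in moderate, and 2920.2 and 2462 in severe and at 1385 and 716 CPM in sham, 768 and 682 in mild, 673 and 943 in moderate, and 1021 and 981 in severe, the deacetylase Hdac1 at 35.9 to 100.4 CPM and the kinase Eif2ak2 at 22.3 to 49.4 CPM over all libraries. Medians of the list were 0.06, 0.42 and 0.77.

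The moderate group gave no call with edgeR, and its largest differences are given as values. Among genes of at least 50 CPM whose groups did not overlap, the largest positive values given here were those of Map1a (4.47 ± 0.59) and Arl5c (4.17 ± 1.01) and the largest negative ones those of S100a9 (-6.49 ± 2.08), S100a8 (-5.60 ± 1.65) and Cxcl13 (-5.47 ± 1.69) on the log2 scale. S100a9 was at 2915 and 112 CPM in sham, 110.4 and 5.75 in mild, 25.7 and 0 in moderate, and 590.4 and 18.2 in severe, and its sham values rest on sham replicate 1. Arl5c, a small GTPase, was at 0.389 and 9.49 CPM in sham, 7.77 and 11.99 in mild, 33.2 and 186 in moderate, and 383 and 179 in severe, with moderate replicate 2 near the severe libraries (severe against mild log2 fold change 4.79 ± 1.05, adjusted p = 0.037). Its call was lost without any mild or severe library (adjusted p = 0.104 to 0.202) and without the glial-profile cells (log2 fold change 4.34, adjusted p = 0.119). The 2 moderate libraries held 342 and 29 microglia.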

How the data were processed

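Single-cell RNA sequencing libraries were made from the cord of 8 samples, 2 per group. The deposited values are raw UMI counts per gene and cell, made by the authors with Cell Ranger (version 5.0.1 per the file headers, 6.0.1 per the supplementary methods) on build Rnor_6.0 per the labels, with 32623 genes and no annotation of cells. Cells were selected by the rule given in the opening, and doublets were not removed. UMIs of the selected cells were summed per library, to 282471 UMIs in severe replicate 1, 396145 in moderate replicate 2 and 1299491 to 11915337 in the others, so that low genes were least certain in the former pair. Sums of libraries with at least 20 such cells, which all 8 had, were tested with edgeR 4.0.16 in R 4.3.3 (filterByExpr, TMM, quasi-likelihood test, Benjamini-Hochberg), checked on simulated counts, with DESeq2 1.42.0 as an alternative. The interaction of cell set and injury was tested with the library as a block. Cells were handled with Python 3.11.15 and scanpy 1.11.5.

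Oligodendrocytes were cells with at least 3 UMIs of Mog, Mag and Mobp together and fewer than 10 of C1q. Named genes were the 6 largest rises and falls of each comparison among called genes of at least 50 CPM without overlap between groups (the 3 largest where none was called), and from each of 21 gene lists the 2 most abundant members and up to 3 with the smallest adjusted p for the mean of injured groups. Other genes were named from a count of calls, after their values were seen. Of 378 listed genes, 19 had no values here, and some genes that the rule names are not reported here. The members, lists and tests were chosen with earlier results of these data known.

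Alternatives were another count test, scaling by library size, a block of replicate numbers, all genes kept however low, fits of only the groups compared, each library left out, stricter limits on identity, C1q and depth, thinning before the rule, and removal of the 7.7% of cells with the highest doublet scores and of cells outside 2 SD of UMIs and genes. The last 3 to be tried were chosen after seeing the data, and dropped the limit on Cxcl1, the 2 libraries with fewest microglia, and the members of glial profile.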

Additional observations from a re-analysis of the deposited data

Results flagged for a closer look

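In 12 of the genes named, severe and mild libraries moved apart by a test of the difference itself (severe against mild, quasi-likelihood test of edgeR, the 6 largest each way by the rule for named genes). Rps19 differed by 5.63, Rps6 by 4.98, Arl5c by 4.79, Il1b by 4.55, Cks2 by 4.45 and Rel by 3.38 on the log2 scale, higher in both severe libraries than in both mild libraries, as were 23.1% of all genes (29.8% were lower). Of these, Rps19 and Rps6 were called with any single library left out, and Arl5c, Il1b, Cks2 and Rel were not called without severe replicate 1, severe replicate 2 or other libraries named with each. Without the glial-profile cells Arl5c and Il1b were not called (4.34 and 4.10, adjusted p = 0.119 and 0.0564), while Rps19, Rps6, Cks2 and Rel were. Trh had a fitted difference of -12.05, Slain1 of -11.20, Tmem117 of -11.10, Uchl1 of -7.63, Apbb1 of -7.39 and Fez1 of -7.35. These 6 genes had no UMI or at most 1 UMI per severe library, so their fitted values depend on the prior count of the fit and are no bounds. All 6 were lower in both severe than in both mild libraries and lost their call without severe replicate 1 or 2 (adjusted p = 0.0876 to 0.342), and 5 were not called without the glial-profile cells, where their fitted values were -4.36 to -7.90 and Trh was too low to be tested.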

How the results depend on the processing

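The number of genes called by edgeR moved with the processing more than the direction of single genes. Over 109 named results, 1365 of 2179 alternative values kept direction and side of the threshold, 714 lost and 91 gained a call, and 9 reversed. Counts follow in the order mild, moderate, severe, mean of injured groups and severe against mild, where 369, 0, 18, 16 and 324 genes were called. With no filter on low counts 1328, 373, 311, 582 and 882 genes were called, and 111 in the test between cell sets (0 as reported), which DESeq2 raised to 3. Counts with DESeq2 were 123 in moderate, 78 in severe, 102 for the mean and 499 in severe against mild. A limit of 5 identity UMIs (6 libraries) gave 0 in mild, severe, the mean and severe against mild. Thinning before the rule (5 libraries) gave 0, 2, 0, 0 and 0. Leaving out the 2 libraries with fewest microglia gave 0 in mild, severe, the mean and severe against mild, and a fit of sham and mild alone gave 0, each with an unadjusted p under 0.05 in 156 genes or more. At least 20 C1q UMIs gave 24, 4 and 29 against sham and 122 in severe against mild. Removing doublets and outlying cells gave 11, 8, 51, 34 and 79. Dropping the limit on Cxcl1 gave 242 in mild, 77 in severe and 624 in severe against mild. Without members of glial profile the counts were 1, 2 and 32 against sham and 48 in severe against mild. In the test between cell sets, Fabp4-positive phagocytes as the comparison gave 4 calls and cells without identity UMIs 13. Leaving out each library in turn gave 13 to 727 calls in mild, 0 to 179 in moderate, 0 to 165 in severe, 0 to 200 for the mean, 3 to 649 in severe against mild and 0 to 49 between cell sets. The cause of these shifts was not tested, apart from the smaller number of libraries or cells that some settings leave.

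Same-numbered libraries of different groups deviated with correlations of -0.22 to 0.25 over all genes tested, so no pairing by replicate number was seen. With 2 libraries per group, these values cannot exclude a pairing that acts on some genes. With the replicate block mild gave 210 calls, moderate 1 and severe 6, and the other totals stayed within 1.5 times. Lower calls in severe against mild went from 213 to 141, and the 16 calls for the mean of injured groups were all lower, shared 11 with those reported and left out Angptl4 and Map1a. Reversed values were -0.35 for Mbp and -0.54 for Map1a (the last for the mean of injured groups) after removal of doublets, -0.0052 for Mbp without members of glial profile, and -1.10 for Map1b, -0.16 for Slain1, -0.27 for Cnp, -0.64 for Mbp, -0.0852 for Cd59 and -1.58 for Map1a with thinning before the rule, in mild except for Map1a. Severe replicate 1 and moderate replicate 2, with 21 and 29 microglia, limit what can be seen of low genes. The mean share of microglia over libraries, and those of thinned microglia with Cd74, Ccl4 or Il1b, moved by less than 1 SD between libraries, an SD widened by sham replicate 2. The share among C1q-high cells of severe replicate 2 nonetheless went from 2.92 to 15.1% without the limit on Cxcl1.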
